A study of Homo sapiens with 34 samples.

Results

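The genes described here encode 3 related groups of proteins: the ADAMTS metalloproteinases with their ADAMTS-like relatives, the matrix metalloproteinases (MMPs) and the tissue inhibitors of metalloproteinases (TIMPs). They were chosen by name, as every row of the expression table called ADAMTS or ADAMTSL, MMP or TIMP with a number, apart from MMP8 and MMP9. This gave 42 of 20255 genes, of which 41 passed the filter on low values and were tested. RNA sequencing was done on the H1 line of human embryonic stem cells, a widely shared line, which was driven towards blood without added haematopoietic cytokines. Cells were aggregated into embryoid bodies, attached to collagen IV and exposed to BMP4 with VEGF, after which VEGF was the remaining growth factor. The unsorted samples were 1 untreated sample of undifferentiated H1 cells and 3 samples each of embryoid bodies on day 0 and of cultures on days 2 and 4. On days 6, 9 and 12 the cultures were sorted by CD43, a sialoglycoprotein of blood cells encoded by SPN, into CD43+ and CD43- cells, with 3 samples each. The day 16 gates also used CD45, so the CD43- cells of that day were CD43-CD45- and the positive ones CD43+/CD45+. All 34 samples came from the same cell line, and the 3 replicates of a population were biological replicates of the differentiation.

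ADAMTS and MMP enzymes are zinc-dependent proteases that cut the extracellular matrix and proteins attached to it. ADAMTS enzymes trim procollagens, cleave the large proteoglycans versican and aggrecan, process von Willebrand factor or act on cartilage and microfibril proteins, whereas ADAMTS-like proteins lack the protease domain and bind the matrix. MMPs cut collagens, gelatin, elastin and many surface proteins, some as secreted enzymes and others anchored in the plasma membrane, and TIMPs block them. In the embryo, blood cells leave an endothelial and mesenchymal layer that builds and remodels such a matrix.

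Values in the deposited table are tag counts corrected for GC content, called GC-normalized tag counts, whose sorted values were the same in all 34 samples, with a median of 197 and a highest value of 90700. A value therefore gives the place of a gene within its sample, it is not adjusted for gene length, and the sequencing depth cannot be read from it. A gene was called when its Benjamini-Hochberg adjusted p-value from limma was below 0.05 and its fold change above 4, on the scale of log2(value + 1). SPN followed the sort on every day, and the 7 blood markers summed to between 27059 and 42273 in CD43+ and between 750 and 3399 in CD43- samples. Endothelial markers summed to between 4689 and 39042 in CD43+ and between 29028 and 99498 in CD43- samples, epithelial ones to between 673 and 6202 and between 29972 and 115680, and pluripotency ones to between 577 and 4593 and between 480 and 3017. On days 6 and 9 the CD43+ pluripotency sum was mostly DNMT3B, with means of 4079 and 4189 against 1570 and 734 in CD43- cells. On day 6 the CD43+ means of POU5F1 (39.7 against 886) and NANOG (3.3 against 111) were lower, and SOX2 was near 0 in both populations. The 8 mesenchymal markers summed to between 149561 and 277212 in CD43- samples and between 2878 and 64574 in CD43+ samples, and 6 of them were called lower in CD43+ cells on day 6 and all 8 on days 9, 12 and 16. The 6 macrophage markers were all called higher in CD43+ cells on days 12 and 16, and C1QA was at 0 in every sample of days 4 and 6. Their sum was 380 in replicate 1 of the day 12 CD43- cells and 5001 and 6214 in replicates 2 and 3. It was 80421 in replicate 1 of the day 12 CD43+ cells, against 27707 and 22480 in the other two. In such sorted bulk samples, fewer cells of a type and less RNA per cell cannot be told apart.

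Most ADAMTS and MMP genes were lower in CD43+ than in CD43- cells. On day 6, 15 of the 41 tested genes were lower in CD43+ cells, against 7.85% of all genes, and 2 were higher, against 4.68%. On day 9, 25 were lower, against 12.8% of all genes, and 2 higher, against 8.65%. On day 12, 25 were again lower, against 14.4%, and 3 higher, against 11.8%. On day 16, 22 were lower, against 13.6%, and 4 higher, against 12.2%. The median log2 fold change of the tested family genes was -1.21, -2.36, -2.95 and -2.21 on the 4 days, beside 0.14, 0.24, 0.22 and 0.14 over all genes tested.

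In all, 30 of the 41 genes were lower in CD43+ cells on at least 1 day, against 20.2% of all genes. ADAMTS1, ADAMTS2, ADAMTS8, ADAMTS12, ADAMTS15, ADAMTS18, ADAMTS20, ADAMTSL1, ADAMTSL5, MMP1, MMP16 and MMP28 were lower on all 4 days, which makes 12 genes, against 4.62% of all genes. Higher on at least 1 day were 5 of the 41 genes, MMP17, MMP19, MMP25, TIMP3 and TIMP4, against 18% of all genes. MMP17 was the 1 gene of the 41 higher on all 4 days, a share near the 2.09% of all genes. MMP19 was called in both directions, lower on day 6 and higher on day 16. Of these 12, ADAMTS8 lost the call on each of the 4 days with a pseudocount of 10, and ADAMTSL5 lost it on day 6 (-1.75). The 7 genes called on no day with all samples were ADAMTS3, ADAMTS10, ADAMTS13, ADAMTSL4, MMP14, MMP24 and TIMP1.

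**Figure D1:**
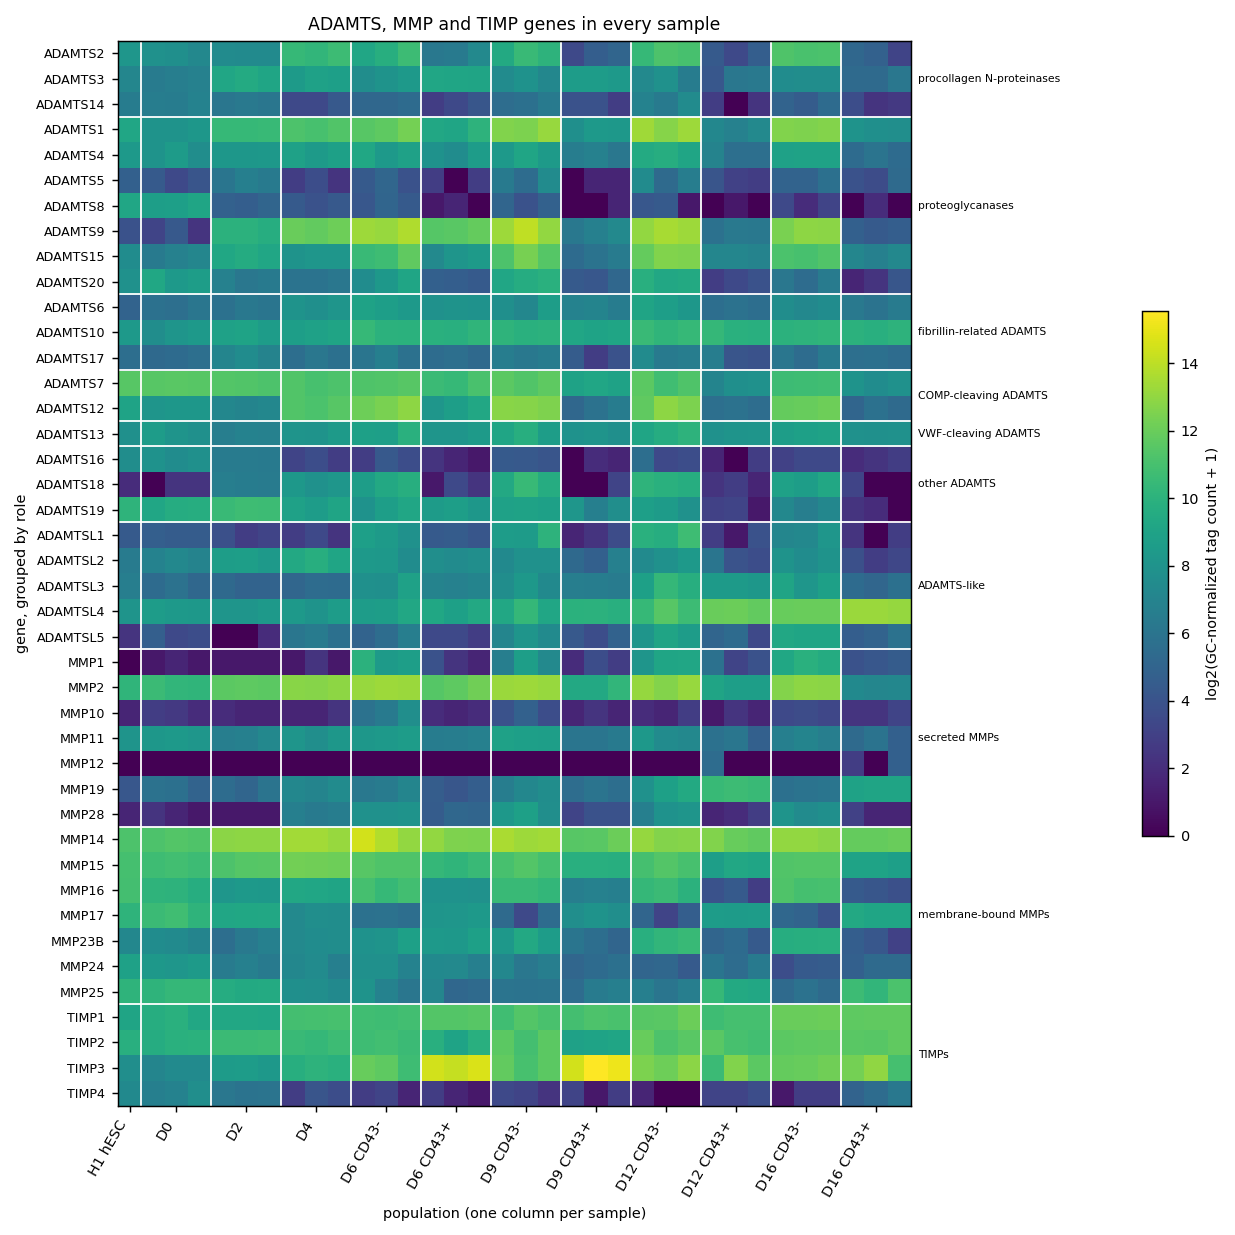
Heatmap of log2(GC-normalized tag count + 1) for the 42 genes (rows, grouped by role) in the 34 samples (columns, grouped by population, H1 hESC being the undifferentiated sample). TIMP3 was brightest in the CD43+ cells of days 6 and 9, where it reached 48050, and MMP12 was at 0 in most samples. Rows are not adjusted for gene length, so colours compare samples within a gene.

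**Figure D2:**
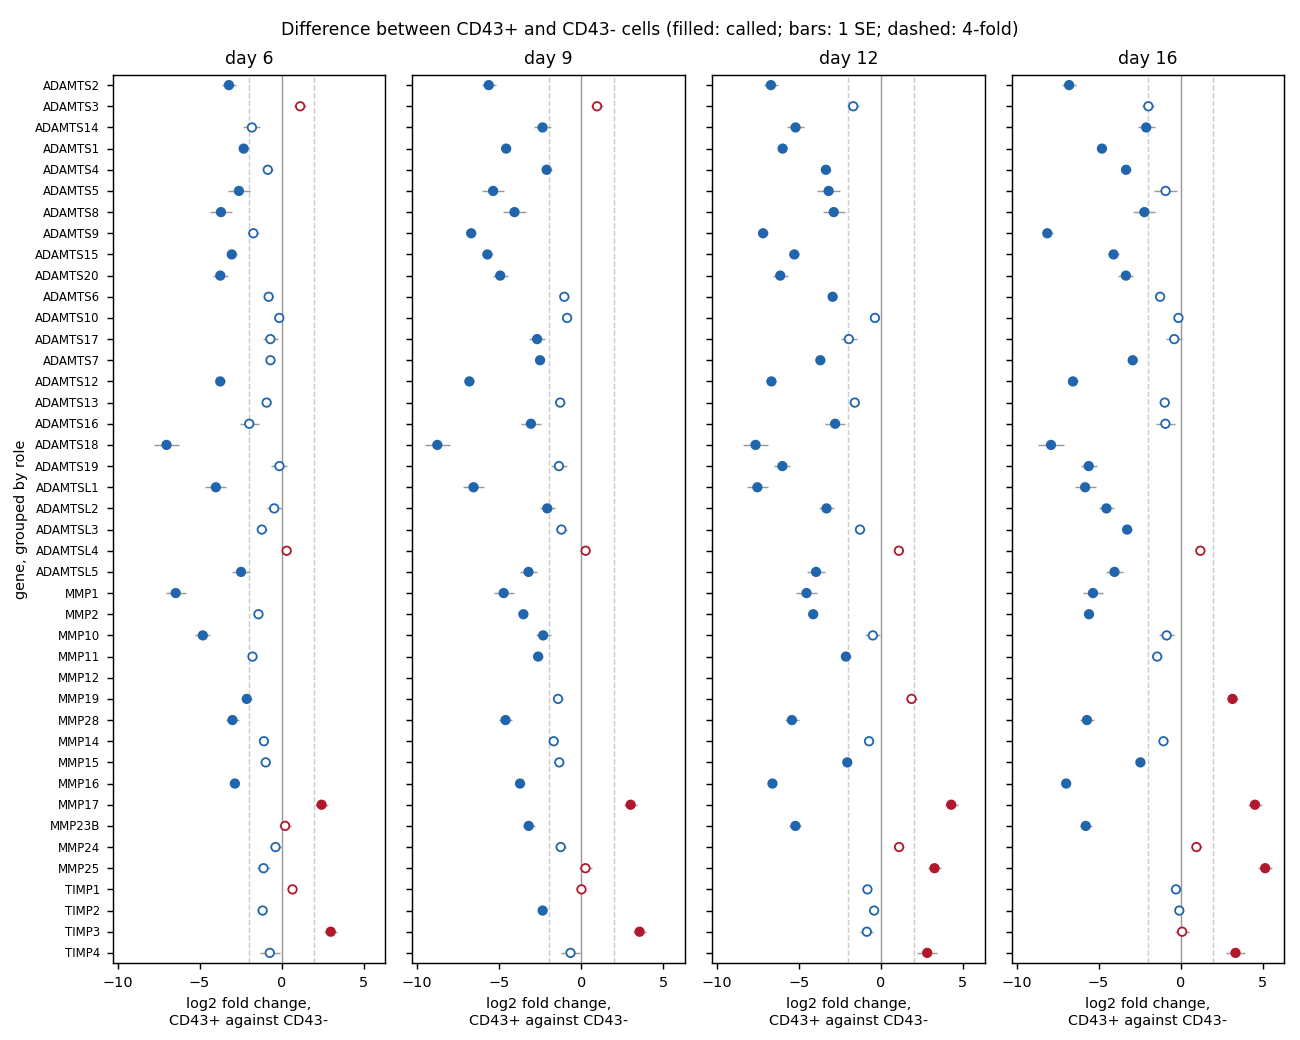
Log2 fold change of each gene in CD43+ against CD43- cells on days 6, 9, 12 and 16 (horizontal axis, with 1 SE from limma). Filled points were called, open points were not, and dashed lines mark a 4-fold difference. Most filled points lie left of 0, 15, 25, 25 and 22 of them on the 4 days, and MMP12 has no point because it was not tested.

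Of the 7 proteoglycanases, which cleave versican and aggrecan, 5 were lower in CD43+ cells on day 6, all 7 on days 9 and 12 and 6 on day 16, and none was higher. On the 4 days 15, 25, 25 and 22 of the 41 family genes were lower, and 7.85%, 12.8%, 14.4% and 13.6% of all genes. ADAMTS9, a versicanase, had values of 8, 19 and 4 in day 0 embryoid bodies and 4030, 3538 and 4504 on day 4. In CD43- cells it stood at 9886, 8964 and 13311 on day 6 and at 5550, 7624 and 7320 on day 16. In CD43+ cells it went from 2842, 3080 and 3716 on day 6 to 74, 108 and 156 on day 9, 54, 76 and 74 on day 12 and 26, 20 and 24 on day 16. No CD43+ sample reached a CD43- sample on any day. The difference was under the fold threshold on day 6 (log2 fold change -1.73, SE 0.32, limma adjusted p = 6.44e-05) and was called on day 9 (-6.71, SE 0.32, adjusted p = 1.21e-15), day 12 (-7.19, SE 0.32, adjusted p = 1.27e-16) and day 16 (-8.13, SE 0.32, adjusted p = 9.82e-18).

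ADAMTS1, another versican-cleaving enzyme, had 6137, 6066 and 6462 in CD43- and 255, 214 and 203 in CD43+ cells on day 16, after 2954, 3277 and 4956 against 651, 558 and 1066 on day 6. ADAMTS15, a further proteoglycanase, had 3770, 6335 and 5979 in CD43- and 141, 138 and 122 in CD43+ cells on day 12. Both were separated on every day, with log2 fold changes from -6.00 to -2.32 for ADAMTS1 and from -5.73 to -3.04 for ADAMTS15. ADAMTS20, which resembles ADAMTS9, was called lower on all 4 days too, with 903, 651 and 687 in CD43- and 6, 10 and 14 in CD43+ cells on day 12. ADAMTS4 and ADAMTS5, the classical aggrecanases, were less regular. ADAMTS4 overlapped on day 6 and was called lower on days 9, 12 and 16, and its day 9 difference of -2.11 was under the fold threshold without replicate 2 of the CD43- cells (-1.87) or replicate 3 of the CD43+ cells (-1.94). ADAMTS5 was at low values throughout, at most 181, and was called lower on days 6, 9 and 12 but not on day 16 (log2 fold change -0.92, SE 0.68, adjusted p = 0.238). Its call on day 6 (-2.60) was lost without replicate 2 of the CD43+ cells (-1.67) and with a pseudocount of 10 (-1.21). ADAMTS8 was mostly a gene of the stem cells, with 598 in undifferentiated H1 cells, and its values in sorted cells were at most 32. With a pseudocount of 10 its differences were -1.58, -1.67, -1.02 and -0.62 on the 4 days, each under the fold threshold. On day 16 its CD43- values of 10, 3 and 8 overlapped the CD43+ values of 0, 3 and 0, and the call (-2.21) was lost without replicate 1 or 3 of the CD43+ cells (-1.88 each) or replicate 1 of the CD43- cells (-1.92).

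**Figure D3:**
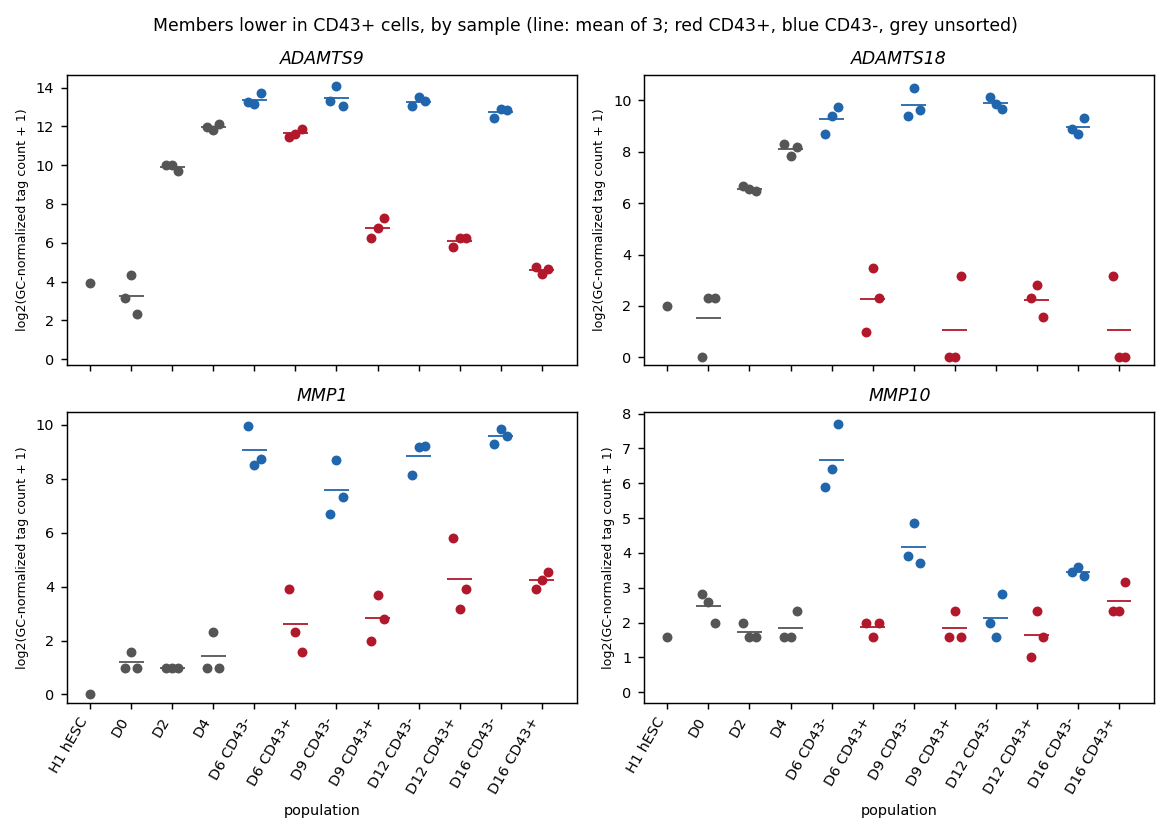
Values of ADAMTS9, ADAMTS18, MMP1 and MMP10 in every sample, as log2(GC-normalized tag count + 1), by population. Points are samples and lines the mean of 3 on that log scale. ADAMTS9 rose over days 0 to 4 before the 2 sorted populations parted, and the CD43- values of MMP10 were highest on day 6, at 58, 84 and 208.

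Among the procollagen N-proteinases, which remove the amino-terminal propeptide of fibrillar collagens, ADAMTS2 and ADAMTS3 took different courses. ADAMTS2 had 580, 845 and 1646 in CD43- and 74, 84 and 158 in CD43+ cells on day 6, and 2464, 2210 and 2289 against 35, 27 and 8 on day 16. Its groups were apart on every day, with log2 fold changes of -3.21 (SE 0.44, adjusted p = 9.31e-07) on day 6 and -6.80 (SE 0.44, adjusted p = 2.52e-13) on day 16. ADAMTS3, which also processes the lymphatic growth factor VEGF-C, was on the other side early on. It had 198, 250 and 345 in CD43- and 584, 573 and 538 in CD43+ cells on day 6, and 190, 193 and 194 against 40, 40 and 71 on day 16. Those log2 fold changes of 1.13 (SE 0.36, adjusted p = 0.0105) and -1.97 (SE 0.36, adjusted p = 2.59e-05) were both under the fold threshold with all samples, but the day 16 difference was called without replicate 3 of the CD43+ cells (-2.24, adjusted p = 1.89e-05). On day 12 its difference of -1.69 was called without replicate 3 of the CD43- cells (-2.05) or replicate 2 (-2.002) or 3 (-2.04) of the CD43+ cells. Within CD43+ cells ADAMTS3 fell by 2.96 on the log2 scale from day 9 to day 12 (SE 0.36, adjusted p = 1.13e-07). ADAMTS14 was called lower on days 9, 12 and 16, with 117, 82 and 179 in CD43- and 6, 0 and 4 in CD43+ cells on day 12. Its day 9 difference of -2.36 was -1.996 without replicate 3 of the CD43+ cells, just under the threshold, and its day 16 difference of -2.10 lost the call without replicate 3 of the CD43- cells (-1.87) or replicate 2 or 3 of the CD43+ cells (-1.83 and -1.96). Both calls were lost with a pseudocount of 10 (-1.72 and -1.28), and on day 6 its difference of -1.81 was called without replicate 3 of the CD43+ cells (-2.16).

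ADAMTS7 and ADAMTS12, which cleave cartilage oligomeric matrix protein, were both called lower in CD43+ cells from day 9 onwards. ADAMTS12 had 4422, 5476 and 7624 in CD43- and 286, 417 and 640 in CD43+ cells on day 6, and 7026, 6690 and 5898 against 35, 56 and 92 on day 9. The 2 populations did not overlap, and the log2 fold change went from -3.74 (SE 0.28, adjusted p = 3.80e-11) on day 6 to -6.82 (SE 0.28, adjusted p = 1.20e-16) on day 9 and -6.57 on day 16. The day 6 CD43+ samples ordered by ADAMTS12 were in the same order as by their mesenchymal marker sum, which was 21682, 25591 and 64574 in replicates 1, 2 and 3. Most of that sum was COL1A1 (18751, 18751 and 37166) and COL3A1 (1952, 5706 and 25870). Its relation to ADAMTS12 was not tested. ADAMTS7 differed from ADAMTS12 in its early level, with 2896, 3084 and 2865 on day 0 and 2586, 2058 and 2386 on day 4. Its CD43+ values were 1559, 1354 and 2136 on day 6, 501, 584 and 500 on day 9 and 130, 210 and 230 on day 12, while the CD43- cells stayed between 1636 and 3260 on the 4 days.

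Of the ADAMTS genes outside those groups, ADAMTS18 showed the largest fall in CD43+ cells on days 6, 9 and 12. ADAMTS18, which is known from eye development, had 410, 674 and 862 in CD43- and 1, 10 and 4 in CD43+ cells on day 6. On day 9 the values were 666, 1428 and 799 against 0, 0 and 8, on day 12 they were 1118, 934 and 808 against 4, 6 and 2, and on day 16 they were 470, 408 and 640 against 8, 0 and 0. No CD43+ value came near a CD43- value. The log2 fold changes were -7.02, -8.78, -7.65 and -7.90 (SE 0.77 each, adjusted p from 1.58e-10 to 2.59e-08), and since the CD43+ values were near 0 these sizes depend on the pseudocount. ADAMTS19, a gene with a role in heart valves, had overlapping values on day 6, at 244, 428 and 595 in CD43- and 372, 426 and 297 in CD43+ cells (log2 fold change -0.13, SE 0.49). It had 439, 374 and 233 in CD43- and 7, 8 and 1 in CD43+ cells on day 12 (log2 fold change -6.01, SE 0.49, adjusted p = 2.31e-11). ADAMTS16 was a low-valued gene after day 2, with at most 48, and was called lower on days 9 and 12, but not with a pseudocount of 10 (-1.29 and -1.24). Its day 6 difference of -1.97 was called without replicate 1 of the CD43- cells (-2.38) or of the CD43+ cells (-2.32) and after median-of-ratios scaling (-2.09).

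The fibrillin-related enzymes ADAMTS6, ADAMTS10 and ADAMTS17 and the von Willebrand factor protease ADAMTS13 were called on few days. ADAMTS10 had 1358, 1022 and 970 in CD43- and 934, 909 and 1169 in CD43+ cells on day 6, and 1011, 1084 and 1145 against 998, 912 and 1044 on day 16. Its populations overlapped on days 6, 12 and 16, and the log2 fold changes over the 4 days lay between -0.86 and -0.13. ADAMTS13 was lower in the CD43+ samples without overlap on each day, by -1.60 to -0.92 on the log2 scale, which is under the fold threshold. ADAMTS6 was called lower on day 12 only (-2.95, SE 0.26, adjusted p = 1.03e-10), with 534, 416 and 296 in CD43- and 48, 58 and 49 in CD43+ cells. ADAMTS17 was called lower on day 9 only, with 94, 75 and 90 against 22, 6 and 14. On day 12 it had 180, 79 and 97 in CD43- and 94, 16 and 14 in CD43+ cells, and its difference of -1.96 was called at -2.81 (adjusted p = 6.22e-07) without replicate 1 of the CD43+ cells, whose value of 94 stood apart. That difference was also called without replicate 2 (-2.20) or 3 (-2.06) of the CD43- cells or without both (-2.65), after median-of-ratios scaling (-2.05) and with a pseudocount of 0.1 (-2.01).

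Of the 5 ADAMTS-like genes, 4 were lower in CD43+ cells on day 16, beside 22 of the 41 family genes and 13.6% of all genes, and none was called higher. ADAMTSL1 had 436, 350 and 237 in CD43- and 20, 22 and 17 in CD43+ cells on day 6, and 946, 842 and 1678 against 6, 1 and 14 on day 12 (log2 fold change -7.54, SE 0.64, adjusted p = 6.04e-11). ADAMTSL5, which binds fibrillin, had 629, 570 and 554 in CD43- and 24, 30 and 58 in CD43+ cells on day 16. ADAMTSL3 was called on day 16 alone, where its values were 534, 287 and 455 against 42, 34 and 52, after 466, 1338 and 860 against 350, 362 and 294 on day 12. ADAMTSL2, whose loss causes a short-stature disorder, was called on days 9, 12 and 16, and its day 9 difference of -2.08 was under the threshold without any 1 of 4 libraries. It was -1.99 without replicate 2 or 3 of the CD43- cells, -1.91 without replicate 1 of the CD43+ cells and -1.65 without replicate 2 of the CD43+ cells, and with a pseudocount of 10 it was -1.86.

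ADAMTSL4, which binds fibrillin microfibrils and is needed to hold the eye lens in place, moved differently. It had 335, 248 and 391 on day 4, then 384, 397 and 636 in CD43- and 612, 448 and 668 in CD43+ cells on day 6. By day 16 the values were 3980, 4030 and 4030 in CD43- and 9485, 9485 and 8793 in CD43+ cells. Every day 16 value was above every day 4 value, and the CD43+ samples were above the CD43- samples without overlap on days 12 and 16. The difference of 1.20 on day 16 (SE 0.25, adjusted p = 0.000138) was under the fold threshold. Within CD43+ cells ADAMTSL4 rose by 2.05 from day 9 to day 12 (SE 0.25, adjusted p = 1.27e-07), a call lost without replicate 3 of the day 9 cells or replicate 2 of the day 12 cells (1.99 each).

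Of the 6 secreted MMPs tested, the number lower in CD43+ cells was 4 on day 6, then 5, 4 and 3 at the later 3 time points. The shares of all genes lower on the 4 days were 7.85%, 12.8%, 14.4% and 13.6%. MMP1, the interstitial collagenase, was at 4 or less in all samples up to day 4. It had 1000, 359 and 423 in CD43- and 14, 4 and 2 in CD43+ cells on day 6, and 624, 923 and 757 against 14, 18 and 22 on day 16. The populations were far apart on every day, with log2 fold changes of -6.46 (SE 0.62, adjusted p = 2.47e-09) on day 6 and -5.34 (SE 0.62, adjusted p = 1.99e-08) on day 16. MMP10, a stromelysin whose gene lies 9.29 kb from MMP1 on chromosome 11, shared the onset but not the later course. Its values were 58, 84 and 208 in CD43- and 3, 2 and 3 in CD43+ cells on day 6 (-4.80, SE 0.45, adjusted p = 1.62e-09). In CD43- cells they were 14, 28 and 12 on day 9 and 3, 2 and 6 on day 12, where the CD43+ values of 1, 4 and 2 overlapped them. The day 9 call of MMP10 (-2.32) was lost without replicate 2 of the CD43- cells (-1.97) and with a pseudocount of 10 (-1.11).

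MMP2, a gelatinase that cuts denatured and basement membrane collagen, was among the more gradual. It had 8972, 9724 and 9496 in CD43- and 2792, 3324 and 4718 in CD43+ cells on day 6, where the difference of -1.41 was under the threshold. CD43- values remained between 6587 and 10082, whereas those of CD43+ cells were 682, 676 and 1204 on day 9, 542, 417 and 424 on day 12 and 166, 140 and 143 on day 16. The log2 fold change on day 16 was -5.59 (SE 0.18, adjusted p = 1.42e-19). MMP28, also called epilysin, had 260, 182 and 216 in CD43- and 7, 2 and 2 in CD43+ cells on day 16 and was called lower on all 4 days. MMP11, a furin-activated enzyme, was called on days 9 and 12, and the day 12 difference of -2.14 was lost without replicate 1 of the CD43- cells (-1.83) or replicate 3 of the CD43+ cells (-1.74) and with a pseudocount of 10 (-1.93). MMP12, the macrophage elastase, was not tested. It was at 0 in 31 samples and above 0 only in replicate 1 of the day 12 CD43+ cells (45) and replicates 1 and 3 of the day 16 CD43+ cells (6 and 26).

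MMP19 crossed from one side to the other. This secreted protease of basement membrane proteins had 74, 88 and 134 in CD43- and 23, 17 and 24 in CD43+ cells on day 6 (log2 fold change -2.13, SE 0.32, adjusted p = 3.50e-06). On day 12 the values were 230, 451 and 686 in CD43- and 1433, 1590 and 1514 in CD43+ cells, and on day 16 they were 52, 60 and 64 against 502, 542 and 552. The samples were apart on each of these days, below on day 6 and above on days 12 and 16. The day 12 difference was 1.86 (SE 0.32, adjusted p = 9.74e-06), under the threshold with all samples, and the day 16 difference was 3.16 (SE 0.32, adjusted p = 1.53e-09). The call on day 6 was lost without replicate 3 of the CD43- cells (-1.89) or replicate 2 of the CD43+ cells (-1.98), and with a pseudocount of 10 (-1.76). The order of the 3 day 12 CD43- samples by MMP19 was that of their macrophage marker sum, at 380, 5001 and 6214. In the day 12 CD43+ samples, replicate 1 had the highest sum (80421) and the lowest MMP19 value (1433). The relation of MMP19 to that sum was not tested. The day 12 difference was called without replicate 3 of the CD43- cells (2.23, adjusted p = 1.29e-06). It was 2.71 without replicates 2 and 3 of those cells, an alternative chosen after seeing the data.

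Among the 7 membrane-bound MMPs, MMP17 and MMP25, both held by a glycolipid anchor, were the genes that were higher in CD43+ cells. MMP17 began at 1572, 1788 and 1116 on day 0 and was at 157, 206 and 197 on day 4. In CD43- cells it had 54, 58 and 49 on day 6 and 36, 30 and 14 on day 16, whereas CD43+ cells had 272, 282 and 330 on day 6, 208, 248 and 202 on day 9, 378, 366 and 394 on day 12 and 664, 573 and 557 on day 16. Every CD43+ value was above every CD43- value. The log2 fold changes were 2.43 (SE 0.40, adjusted p = 1.33e-05), 3.01, 4.28 and 4.53 (SE 0.40, adjusted p = 1.27e-10) on the 4 days.

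MMP25, known as leukolysin and abundant in neutrophils, separated later. It had 1095, 1330 and 1293 on day 0 and 217, 209 and 166 on day 4. On day 6 its values of 248, 118 and 68 in CD43- and 138, 35 and 40 in CD43+ cells overlapped, as did 62, 60 and 63 against 44, 88 and 103 on day 9. On day 12 they were 105, 64 and 99 against 1344, 702 and 646 (log2 fold change 3.26, SE 0.42, adjusted p = 9.89e-08), and on day 16 they were 40, 58 and 40 against 1615, 1216 and 2283 (5.16, SE 0.42, adjusted p = 2.16e-11). From day 9 to day 12 MMP25 rose by 3.51 in CD43+ cells (SE 0.42, adjusted p = 7.33e-08). The macrophage marker sum of CD43+ cells was between 2970 and 3451 on day 9, between 22480 and 80421 on day 12 and between 58987 and 65595 on day 16, and its relation to MMP25 was not tested.

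**Figure D4:**
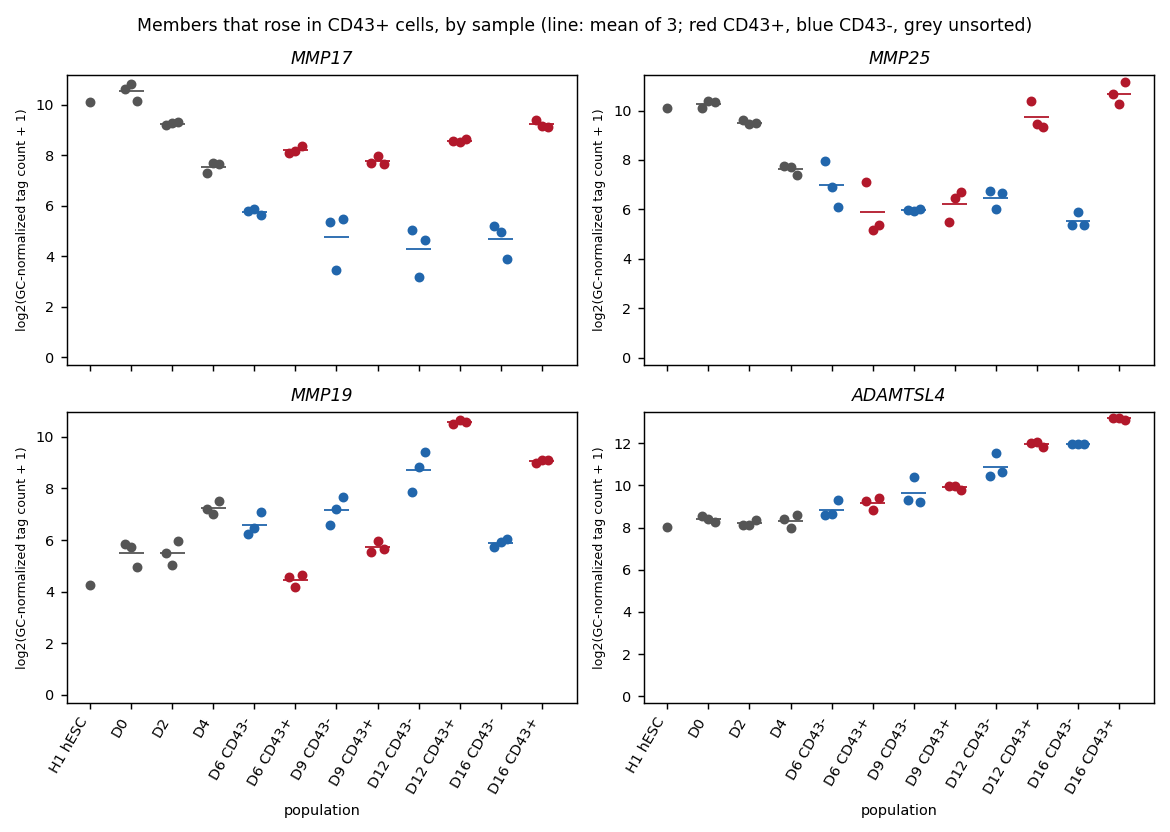
Values of MMP17, MMP25, MMP19 and ADAMTSL4 in every sample, as log2(GC-normalized tag count + 1), by population, with the mean of 3 on that log scale as a line. The CD43+ and CD43- samples of MMP17 did not overlap from day 6, and those of MMP25 did so on days 6 and 9 but not on days 12 and 16.

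The other membrane-bound enzymes were called lower in CD43+ cells on some days or were not called with all samples. MMP16 had 1968, 1384 and 1842 in CD43- and 243, 238 and 228 in CD43+ cells on day 6, and 2500, 1996 and 2118 against 20, 17 and 13 on day 16 (log2 fold change -6.98, SE 0.24, adjusted p = 7.26e-19). MMP23B overlapped on day 6, at 246, 264 and 458 against 323, 310 and 462, and was apart on day 16, at 842, 852 and 886 against 24, 18 and 7 (-5.79, SE 0.36, adjusted p = 1.55e-13). MMP23B has a near-identical copy close by in the genome, so its values are uncertain. MMP14, which activates MMP2 at the cell surface together with TIMP2, was at high values in both populations, with 22830, 14009 and 8272 in CD43- and 8272, 6006 and 5638 in CD43+ cells on day 6. Its log2 fold changes lay between -1.68 and -0.73 and passed the adjusted p threshold but not the fold threshold. MMP15 was called lower on days 12 and 16, with -2.05 on day 12, which became -1.92 without replicate 2 of the CD43- cells and -1.89 without replicate 1 of the CD43+ cells. MMP24 changed sides, with differences under the fold threshold. It had 148, 72 and 99 in CD43- and 34, 42 and 52 in CD43+ cells on day 9 (-1.26, adjusted p = 0.0014). On day 12 it had 32, 36 and 20 against 65, 44 and 85 (1.11, adjusted p = 0.00395). On day 16 it had 12, 20 and 22 in CD43- and 26, 41 and 40 in CD43+ cells, a difference of 0.96 (SE 0.33, adjusted p = 0.011).

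The 4 inhibitors did not move together. TIMP3, which stays bound to the matrix and also inhibits ADAMTS enzymes, had 874, 1060 and 929 on day 4. On day 6 it had 3986, 3302 and 1672 in CD43- and 22836, 18767 and 25862 in CD43+ cells, and on day 9 it had 3654, 2128 and 3244 against 22836, 48050 and 37182. The CD43+ samples were above all CD43- samples on these days, with log2 fold changes of 2.99 (SE 0.41, adjusted p = 8.26e-07) and 3.55 (SE 0.41, adjusted p = 2.01e-08). On day 12 the values were 5641, 4476 and 7332 in CD43- and 1558, 6250 and 3162 in CD43+ cells, and on day 16 they were 3722, 3859 and 4718 against 5134, 7910 and 2018. The groups then overlapped, and the differences of -0.86 (SE 0.41, adjusted p = 0.0615) and 0.09 (SE 0.41, adjusted p = 0.859) were not called. Within CD43+ cells TIMP3 fell by 3.46 from day 9 to day 12 (SE 0.41, adjusted p = 6.26e-08).

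TIMP4 was low after day 2 and was at 30, 44 and 73 in CD43+ and 1, 6 and 6 in CD43- cells on day 16, without overlap (log2 fold change 3.35, SE 0.61, adjusted p = 2.36e-05). On day 12 it had 8, 8 and 12 against 2, 0 and 0 and was called too (2.82, SE 0.61, adjusted p = 0.000194), but with a pseudocount of 10 the differences were 0.86 and 1.997 on days 12 and 16, under the threshold. Without replicates 2 and 3 of the day 12 CD43- cells, whose macrophage marker sums stood apart, the day 12 difference was 1.76. The relation of TIMP4 to those sums was not tested. TIMP2 was called on day 9 alone, with 3123, 1888 and 3214 in CD43- and 473, 527 and 564 in CD43+ cells (-2.36, SE 0.20, adjusted p = 9.82e-11). On day 16 its values of 3196, 3268 and 3386 and of 3002, 2900 and 3436 overlapped. TIMP1 had 1764, 1696 and 1821 in CD43- and 2693, 2736 and 2940 in CD43+ cells on day 6, and 4136, 4136 and 4220 against 3268, 3500 and 3500 on day 16. Its log2 fold changes were 0.66, 0.01, -0.82 and -0.28 on the 4 days and were not called, that of day 9 being -0.20 after median-of-ratios scaling.

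**Figure D5:**
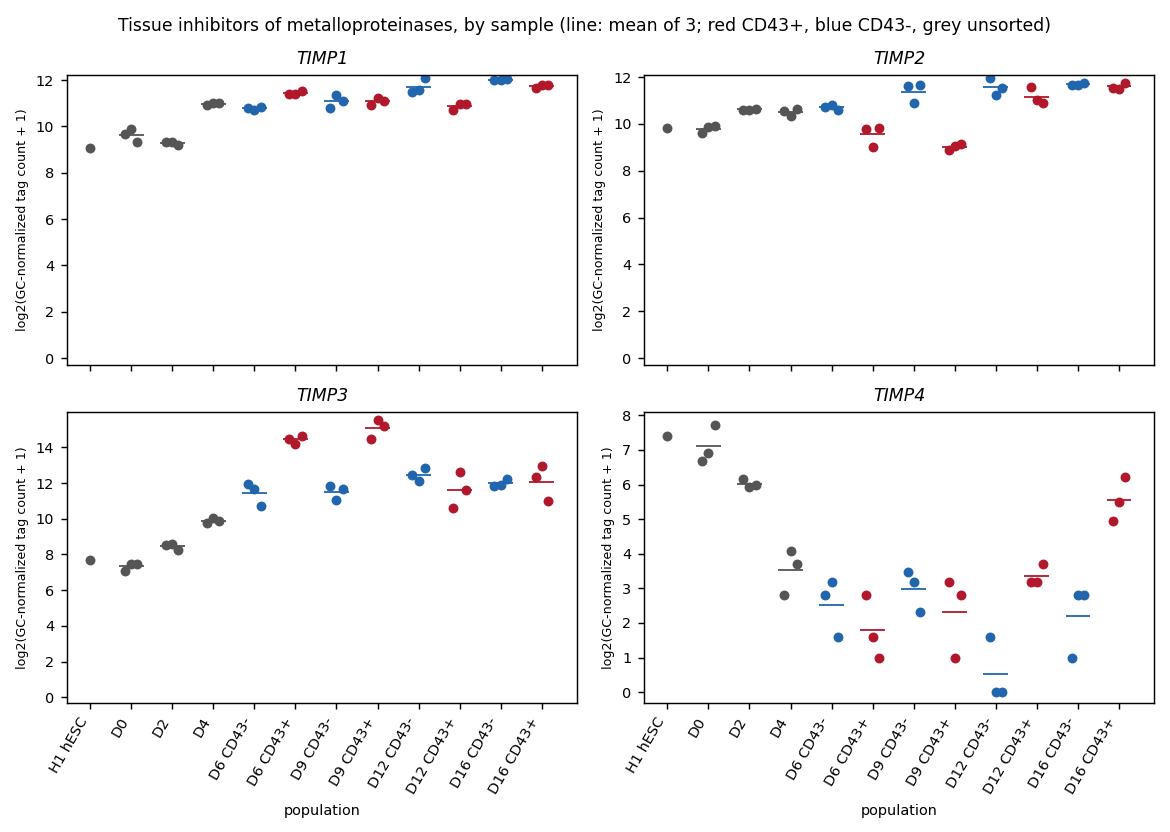
Values of the 4 TIMP genes in every sample, as log2(GC-normalized tag count + 1), by population, with the mean of 3 on that log scale as a line. TIMP3 was above the CD43- samples in CD43+ cells on days 6 and 9 and overlapped on days 12 and 16, where its CD43+ values ranged from 1558 to 7910.

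The windows before the RNA starts of 3 genes that parted in different ways are given from RefSeq (GRCh38.p14), which held such windows for 26 of the 42 genes. They run 250 bases up to the start on the gene's own strand, and capitals mark matches, on either strand, to 4 short motifs. The AP-1 letters were TGANTCA. For GATA factors they were AGATAA, and RUNX factors were searched as TGTGGT. The SP/KLF letters were GGGCGG. MMP10 (chr11:102780629-102780878, minus strand) had its own highest mean in day 6 CD43- cells. ADAMTS18 (chr16:77435035-77435284, minus strand) was near 0 in all CD43+ cells, and TIMP3 (chr22:32801455-32801704, plus strand) was higher in CD43+ cells on days 6 and 9.
MMP10: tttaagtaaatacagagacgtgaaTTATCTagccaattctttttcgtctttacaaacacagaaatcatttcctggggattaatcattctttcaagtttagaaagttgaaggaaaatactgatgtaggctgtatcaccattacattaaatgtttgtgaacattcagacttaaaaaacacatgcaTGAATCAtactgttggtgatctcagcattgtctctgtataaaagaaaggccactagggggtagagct
ADAMTS18: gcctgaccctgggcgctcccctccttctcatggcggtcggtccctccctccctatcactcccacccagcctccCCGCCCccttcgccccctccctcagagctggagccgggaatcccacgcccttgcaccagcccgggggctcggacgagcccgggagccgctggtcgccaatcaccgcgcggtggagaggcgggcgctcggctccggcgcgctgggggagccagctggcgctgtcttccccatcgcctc
TIMP3: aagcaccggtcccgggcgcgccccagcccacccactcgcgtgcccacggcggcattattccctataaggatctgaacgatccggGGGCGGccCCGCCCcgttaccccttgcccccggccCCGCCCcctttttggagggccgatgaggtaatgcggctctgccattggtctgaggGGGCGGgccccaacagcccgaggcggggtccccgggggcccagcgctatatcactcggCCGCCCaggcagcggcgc

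MMP10 held 1 AP-1 match, starting 67 bases before the start, and 1 GATA match 226 bases before it. ADAMTS18 held 1 SP/KLF match and TIMP3 held 5, without an AP-1, GATA or RUNX match in either. In windows that also included the 50 bases after the start, AP-1 letters were found in 2 of the 26 genes (ADAMTS12 and MMP10), against 7.76% of 27305 windows, and GATA letters in 1, against 10.5%. RUNX letters were found in 4 (ADAMTS17, MMP14, MMP23B and TIMP1), against 13.1%, and SP/KLF letters in 23, against 44.6%. These matches describe the letters alone and no binding was measured.

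Before the sort, the genes changed in both directions. From day 0 to day 2, 6 rose, against 4.4% of all genes, and 3 fell, against 3.48%. ADAMTS9 rose most, from 8, 19 and 4 to 1024, 1040 and 832 (log2 fold change 6.64, SE 0.32, adjusted p = 4.18e-15), and ADAMTS1, ADAMTS3, ADAMTS5, ADAMTS15 and ADAMTS18 rose as well. The rise of ADAMTS5 (2.395) did not pass with a pseudocount of 0.1 (2.47, adjusted p = 0.0962) or of 10 (1.88). ADAMTS8 fell from 412, 434 and 566 to 28, 24 and 32 (-4.02, SE 0.68, adjusted p = 3.20e-05), beside ADAMTS20 and ADAMTSL5 (-3.29, or -1.19 with a pseudocount of 10). From day 2 to day 4, 5 rose, against 4.97%, and 4 fell, against 4.53%. MMP28 rose from 1, 1 and 1 to 104, 80 and 95 (5.55, SE 0.42, adjusted p = 4.54e-11), and ADAMTS2, ADAMTS9, ADAMTS12 and ADAMTSL5 rose too. The rise of ADAMTS9 over these days (2.06) was under the threshold without replicate 3 of day 2 (1.96) or of day 4 (1.97). ADAMTS5 fell from 64, 105 and 82 to 6, 12 and 4 (-3.43, SE 0.68, adjusted p = 0.000229), beside ADAMTS14, ADAMTS16 and TIMP4. With a pseudocount of 10, ADAMTS14 (-1.84) and TIMP4 (-1.82) were under the threshold, whereas ADAMTS6, at 1.92, was called without replicate 2 of day 2 (2.03) or of day 4 (2.03). The undifferentiated sample, which has no replicate, held the highest mean of the 12 populations for ADAMTS8 (598), MMP24 (482) and TIMP4 (167).

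From day 4 to the first sorted cells the 2 populations went apart, and both comparisons use the same day 4 samples. In CD43- cells of day 6, 6 genes rose, against 4.94% of all genes, and 0 fell, against 2.77%. MMP1 rose from 1, 4 and 1 to 1000, 359 and 423 (log2 fold change 7.62, SE 0.62, adjusted p = 5.56e-10), and MMP10, ADAMTS15, ADAMTS20, ADAMTSL1 and ADAMTSL3 rose with it, ADAMTS20 by 2.32 with all samples and 1.93 without replicate 3 of the CD43- cells. In CD43+ cells of day 6, 1 rose, against 6.8%, and 6 fell, against 7.73%. TIMP3 rose by 4.55 (SE 0.41, adjusted p = 7.63e-10), whereas ADAMTS18 fell from 312, 229 and 288 to 1, 10 and 4 (-5.84, SE 0.77, adjusted p = 5.13e-07), beside ADAMTS2, ADAMTS8, ADAMTS12, ADAMTSL5 and MMP19. At an unadjusted p below 0.05, limma gave 3 genes lower in the day 6 CD43- cells in place of 0, and the share of all genes at that limit was not counted. ADAMTS8 was -3.35 in the CD43+ comparison, or -1.33 with a pseudocount of 10, and MMP25 (-1.74) was called at -2.36 without replicate 1 of the CD43+ cells.

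Within the CD43- cells few of the genes changed between successive days, and the shares among all genes were small too. From day 6 to day 9, 0 rose, against 1.1% of all genes, and 1 fell, MMP10, against 0.657% (log2 fold change -2.51, SE 0.45, adjusted p = 0.00075), or -1.99 without replicate 3 of the day 6 cells. From day 9 to day 12, 0 rose, against 4.52%, and 2 fell, against 2.8%, namely TIMP4 (-2.46, SE 0.61, adjusted p = 0.00246), at values of 10 or less, and MMP10. The fall of MMP10 (-2.02) lost the call without replicate 2 of day 9 (-1.67) or replicates 1 or 2 of day 12 (-1.96 and -1.75), and that of TIMP4 was -1.40 without replicates 2 and 3 of day 12. With a pseudocount of 10 neither passed (-1.002 for MMP10 and -0.69 for TIMP4), and fitted on the compared populations alone MMP10 had an adjusted p of 0.117 in the first interval and 0.0513 in the second. From day 12 to day 16, 0 rose, against 4.46%, and 3 fell, against 5.97%. The day 16 gate also used CD45, so time and gate cannot be told apart in this interval. ADAMTS20 fell from 903, 651 and 687 to 70, 44 and 86 (-3.50, SE 0.45, adjusted p = 6.69e-07), beside ADAMTSL1 (-2.57) and MMP19 (-2.81, or -1.96 without replicates 2 and 3 of the day 12 cells). In place of the 0 that rose, limma gave 8, 10 and 5 genes higher at an unadjusted p below 0.05 in these 3 comparisons. The share of all genes at that limit was not counted, so these numbers have no comparison.

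The CD43+ cells were compared between successive days in the same way. From day 6 to day 9, 0 rose, against 3.56% of all genes, and 7 fell, against 3.97%: ADAMTS2, ADAMTS9, ADAMTS12, ADAMTS15, ADAMTSL2, MMP2 and MMP23B. ADAMTS9 fell most (log2 fold change -4.88, SE 0.32, adjusted p = 1.53e-11). At an unadjusted p below 0.05 limma gave 2 family genes higher, and the share of all genes at that limit was not counted. Of the 7 that fell, 3 were called without replicate 3 of day 6 and the same 3 without replicate 1 of day 9, since ADAMTS2 (-2.27, then -1.94 and -1.81), ADAMTS15 (-2.02, then -1.76 both times), ADAMTSL2 (-2.03, then -1.996 and -1.87) and MMP2 (-2.10, then -1.89 and -1.96) lay near the threshold. ADAMTS15 also lost its call without replicate 2 of day 6 (-1.94), ADAMTSL2 without replicate 1 of day 6 (-1.996) or replicate 2 of day 9 (-1.60), and MMP2 without that day 9 replicate (-1.96). Without replicate 1 of day 9, ADAMTS17 was called in addition (-2.14, against -1.75 with all samples), and without replicate 3 of day 9, ADAMTS18 (-2.26 against -1.20) and ADAMTSL1 (-2.41 against -1.86). ADAMTS2 (-1.85), ADAMTS15 (-1.87) and ADAMTSL2 (-1.82) were also under the threshold with a pseudocount of 10. The mesenchymal marker sum was 64574 in replicate 3 of day 6 and 2878, 5207 and 18081 in the day 9 replicates, and its part in these falls was not tested.

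From day 9 to day 12, 5 genes rose in CD43+ cells, against 8.45% of all genes, and 4 fell, against 6.54%. MMP19 rose from 46, 62 and 49 to 1433, 1590 and 1514 (log2 fold change 4.84, SE 0.32, adjusted p = 2.14e-12), and MMP25, TIMP2, ADAMTSL4 and ADAMTS5 rose as well. TIMP2 rose by 2.13, or by 1.93 without replicate 1 of day 12, and ADAMTS5 by 2.24, or by 1.71 without replicate 1 of day 9 and 1.85 without replicate 1 of day 12 and by 0.77 with a pseudocount of 10. ADAMTS19 fell from 292, 106 and 204 to 7, 8 and 1 (-5.15, SE 0.49, adjusted p = 1.66e-09), beside ADAMTS3, MMP16 and TIMP3. From day 12 to day 16, 1 rose, against 3.79%, and 1 fell, against 5.26%. Here too the day 16 gate also used CD45, so time and gate cannot be told apart. TIMP4 rose from 8, 8 and 12 to 30, 44 and 73 (2.21, SE 0.61, adjusted p = 0.00471), or by 1.88 without replicate 3 of day 16 and 1.55 with a pseudocount of 10, and ADAMTSL3 fell from 350, 362 and 294 to 42, 34 and 52 (-2.96, SE 0.32, adjusted p = 4.57e-08).

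The difference between CD43+ and CD43- cells was itself compared between day 16 and day 6, by an interaction contrast in limma. It moved towards CD43+ cells for 5 genes, against 9.5% of all genes, and towards CD43- cells for 15, against 9.69%. MMP25 moved most towards CD43+ cells, by 6.26 on the log2 scale (SE 0.59, adjusted p = 2.23e-09), followed by MMP19, TIMP4, MMP10 and MMP17. For MMP10 this came with CD43- values of 58, 84 and 208 on day 6 and 10, 11 and 9 on day 16, while its CD43+ values were 8 or less on both days. The value for MMP17 was 2.10, or 1.71 without replicate 3 of the day 16 CD43- cells and 1.84 with a pseudocount of 10, which also put MMP28 (-1.40) and ADAMTSL3 (-1.86) under the threshold. ADAMTS9 moved most towards CD43- cells, by -6.40 (SE 0.45, adjusted p = 1.29e-11). ADAMTSL3, at -2.05, was under the threshold without any 1 of 5 libraries, at values from -1.98 to -1.84, those being replicates 1 and 2 of the day 6 CD43- cells, replicates 1 and 3 of the day 16 CD43- cells and replicate 2 of the day 16 CD43+ cells.

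Of 14 genes that activate, inhibit or clear these proteases, 4 were lower in CD43+ cells on days 6, 9 and 12 and 2 on day 16. Over all genes, 7.85%, 12.8%, 14.4% and 13.6% were lower on the 4 days. PLAUR, the urokinase receptor, was the 1 of the 14 higher on day 12, against 11.8% of all genes (log2 fold change 2.23, SE 0.23, adjusted p = 2.14e-09). PCSK5, a proprotein convertase, was lower on all 4 days, from -6.11 to -4.16, and so was PLAT, the tissue plasminogen activator, from -6.32 to -2.56. FURIN, the convertase that activates many ADAMTS enzymes and membrane MMPs, had differences of 0.26 to 0.50 and was not called. Of 9 tested genes for substrates, the number lower in CD43+ cells was 4 on day 6, then 8, 6 and 7 at the later 3 time points, beside the same shares of all genes. VCAN, which encodes versican, had 25870, 29026 and 22842 in CD43- and 524, 540 and 580 in CD43+ cells on day 6, and 18772, 14685 and 18772 against 48056, 48056 and 48056 on day 16. It was thus below the CD43- samples on day 6 (-5.56, SE 0.33, adjusted p = 3.44e-13) and above them on day 16 (1.47, SE 0.33, adjusted p = 0.000265), and the change between the 2 days was 7.03 (SE 0.46, adjusted p = 3.25e-12). ACAN, the gene of aggrecan, was called lower on all 4 days, with 672, 410 and 558 against 4, 3 and 0 on day 16.

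Several loci limit what the values mean. In the GRCh38 coordinates of the table, 16 of the 42 genes overlap another listed gene, mostly on the other strand, and whether strand was used in the counting is not given in the sources used here. TIMP3 (chromosome 22, 32801701 to 32863043, plus strand) lies within the span of SYN3 on the minus strand, whose own values were at most 22 in CD43+ cells of days 6 and 9, where TIMP3 was highest. TIMP1 overlaps SYN1 and TIMP4 overlaps SYN2 in the same way, and SYN2 had 20, 14 and 16 in day 16 CD43+ cells beside the TIMP4 values of 30, 44 and 73. ADAMTS9 overlaps a pair of antisense genes and MMP25 overlaps MMP25-AS1. MMP10 and MMP1 on chromosome 11 are neighbours, as are ADAMTS8 and ADAMTS15 on the same chromosome (19.98 kb apart) and ADAMTS1 and ADAMTS5 on chromosome 21 (72.50 kb apart).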

How the data were processed

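RNA sequencing of H1 cells covered 34 samples. The submitters' processing notes name bcl2fastq, STAR 2.7, Bowtie2, RSEM and hg38. The authors describe Bowtie2 and RSEM on an Ensembl annotation, followed by full normalization in EDASeq, and which step used STAR is not given in the sources used here. The table they deposited holds tag counts after GC normalization, in whole numbers, and this normalized score is neither a raw count nor a CPM. As sorted values were identical in all samples, no precision from counting can be given, and the spread between replicates is the error used.

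For testing, 1 was added to each value before taking log2, and limma 3.58.1 (R 4.3.3) fitted 11 population means to 33 samples, with a trended prior variance in eBayes. To be among the 19788 genes tested, a gene had to reach 10 in 3 or more samples, and p-values were Benjamini-Hochberg adjusted over them. Genes were called at an adjusted p below 0.05 and a fold change above 4, the study's own limits. The procedure was tested on simulated data.

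The genes, their grouping by role and the lists of markers, substrates and regulators were chosen with earlier results of these data known. The genes chosen for full values were, in each CD43 comparison, those called without overlap with the 3 largest positive and the 3 largest negative changes. In each other comparison they were the largest rise and fall among those called, and all TIMP genes were added. For some of them, such as MMP17, TIMP1, TIMP2 and TIMP4, sample values are shown for part of the days only. Other family genes are described by role. Alternatives were pseudocounts of 0.1 and 10, no filter, a value of at least 100, a fold change above 2, median-of-ratios scaling, robust variances, a replicate block, fits of the compared populations alone and leaving out each replicate. Leaving out replicates 2 and 3 of the day 12 CD43- cells was added after the data were seen. After subtracting population means, CD43+ and CD43- samples with the same replicate number correlated over genes at 0.109 to 0.199 on day 6, over 0.1 in every pair, and at -0.015 to 0.108 on later days, so numbers count as pairs on day 6 alone, from the data and not the labels.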

Additional observations from a re-analysis of the deposited data

Results flagged for a closer look

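The genes below stood out because their difference between CD43+ and CD43- cells differed between day 16 and day 6 in a test of that change itself (limma, adjusted p from 6.53e-13 to 0.00313). The change, on the log2 scale, was positive for MMP25 (6.26), MMP19 (5.29), TIMP4 (4.07), MMP10 (3.95) and MMP17 (2.10). Of these, MMP19 was called lower in CD43+ cells on day 6 and higher on day 16, and the MMP10 difference was -4.80 on day 6 and -0.85 on day 16, when it was not called. The change was negative for ADAMTS9 (-6.40), MMP23B (-6.00), ADAMTS19 (-5.47), MMP2 (-4.17), MMP16 (-4.13) and ADAMTSL2 (-4.07). It was also negative for ADAMTS2 (-3.58), ADAMTS3 (-3.10), TIMP3 (-2.90), ADAMTS12 (-2.82), MMP28 (-2.71), ADAMTS1 (-2.48), ADAMTS4 (-2.48), ADAMTS7 (-2.24) and ADAMTSL3 (-2.05). The TIMP3 difference was 2.99 on day 6 and 0.09 on day 16, when it was not called. The day 16 gates used CD45 as well as CD43, so time and gate cannot be told apart in these changes.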

How the results depend on the processing

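Of 173 called differences, 24 lost the call without 1 library and 0 changed sign under any alternative. The number of genes called moved by more than 1.5 times in the following cases. At a fold change above 2 it was 27 for CD43 on day 6, 21 from day 0 to 2, 22 from day 2 to 4, and 15 and 20 from day 4 to the day 6 CD43- and CD43+ cells. For the successive intervals from day 6 it was then 2, 8 and 10 in CD43- and 17, 18 and 7 in CD43+ cells. With a pseudocount of 10 it was 0 from day 9 to 12 in CD43- cells, and 4 from day 6 to 9 and 1 from day 12 to 16 in CD43+ cells. In CD43- cells, a value of at least 100 gave 0 from day 6 to 9 and 1 from day 9 to 12, median-of-ratios scaling gave 1 from day 9 to 12, and fitting the compared populations alone gave 0 in both intervals. Without replicates 2 and 3 of the day 12 CD43- cells, an alternative chosen after seeing the data, the count from day 9 to 12 was 1. Leaving out 1 replicate gave 1 to 2 from day 6 to 9 and 1 to 3 from day 9 to 12 in CD43- cells, and 3 to 9 from day 6 to 9 and 1 to 3 from day 12 to 16 in CD43+ cells. The share of all genes called was not counted under these alternatives, so these numbers of family genes have no comparison. The causes were not tested.

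Of 597 alternative values for the named genes, 582 kept direction and side of the threshold, 10 lost the call, 1 gained it and 4 changed sign. Those 4 were not called: TIMP1 on day 9 (-0.20 after scaling, -0.14 without replicate 1 of the CD43- cells), TIMP4 on day 9 (0.0049 without replicate 2 of the CD43+ cells, in a range from -1.08) and TIMP3 on day 16 (-0.34 without replicate 2 of the CD43+ cells, in a range up to 0.64). Median-of-ratios scaling moved the median of all genes by -0.14 and -0.21 in the CD43 comparisons of days 6 and 9, by 0.15 from day 9 to 12 in CD43+ cells and by 0.13 for day 16 against day 6. With the replicate block, the counts for CD43 on the 4 days were 17, 27, 28 and 26, as without it, and 17, 27, 26 and 25 when the compared populations were fitted alone. The block moved no count of calls by over 1.5 times. Depth is unknown, so low values carry an error that the spread of 3 samples alone describes.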
